A study of Orbicella faveolata with 18 samples.

Results

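Among the coral cDNA clones measured in embryos of *Montastraea faveolata*, 56 gave a lower signal at 48 than at 12 hours after fertilization at each of 27.5, 29.0 and 31.5°C. They were chosen by their own values: the mean log2 ratio at 48 hours minus that at 12 hours, here called the fall, had to be -0.8 or less at all 3 temperatures. The table held 1218 clones, and the 1099 with a value on at least 2 of 3 arrays in every condition were examined. The fall was met by 59 of them (5.37%), and 3 of these were left out because they are named histones (H1.0-A, H2A.V and H3.3); clones of small cysteine-rich proteins were also barred, but none had the fall. Azooxanthellate embryos, which carry no algal symbionts, were fertilized together at 1 shared temperature with gametes of several colonies and then moved to the 3 temperatures, of which 27.5°C served as the control. The shared temperature lay above 27.5 and 29.0°C and below 31.5°C. According to the article, this might partly affect expression, above all at 12 hours. For each temperature and time point, embryos from separate containers were combined into 1 RNA isolation, which was hybridised on 3 technical arrays, 18 arrays for 6 RNA samples in all. Every array set Cy5-labelled cDNA of the embryos against a Cy3-labelled pool as reference, without a dye swap, so that a log2 ratio above 0 means more signal in the embryos than in the pool. All comparisons therefore set 1 RNA sample against another, and every SD given here is over technical arrays of the same RNA (n = 3 unless stated) and holds no differences between cultures.

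An early animal embryo runs on transcripts that the mother placed in the egg, and these are cleared as the embryo begins to transcribe its own genome. Coral development leads from cleavage through a hollow ball of cells to gastrulation and a swimming larva. Genes for cell division, cell polarity and the handling of stored RNA are typical of the early part of this development. The article staged embryos of the same cultures a few hours after each sampling. It found mostly blastulae after the earlier time point and mostly gastrulae after the later one, at every temperature. A lower ratio at 48 hours in whole embryos can come from fewer cells that carry a transcript or from less transcript per cell, and such bulk samples cannot tell these apart.

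The 1099 clones moved in both directions between the time points. A rise of 0.8 or more at every temperature was found for 64 clones, against 59 with the fall. Across clones, which are not independent replicates, condition means of different time points correlated between -0.593 and -0.102. Those of the same time point correlated between 0.384 and 0.832. Since the dyes are stated in the methods, the direction of the ratios was kept. By quantiles, the ratios of 15 of the 18 arrays lay nearer the scanner intensities with the sign kept than turned. The exceptions were replicate 3 of 27.5°C and replicate 1 of 31.5°C at 12 hours, and replicate 1 of 29.0°C at 48 hours. For replicate 1 of 31.5°C the mean error was 0.126 with the sign kept and 0.0815 with it turned. The arrays of 27.5°C at 12 hours lacked 241, 79 and 84 clones and the other arrays at most 26, but for 55 of the 56 falling clones none of the 18 arrays was missing. Those 3 arrays had 1616, 1986 and 2067 spots with signal in both channels, against 2583 to 3365 on the others. Replicates 1 and 2 of that condition were also the only arrays whose deposited intensities carry a different entry in the first header line. The sources used here do not say what this entry stands for. These arrays are called the second header group and all others the first. A 12-hour difference from 27.5°C can thus not be fully told apart from a difference between the header groups. The spread of an array's ratios (median absolute deviation) was 0.357 to 0.407 at 27.5°C, 0.350 to 0.372 at 29.0°C and 0.250 to 0.386 at 31.5°C after 12 hours, and 0.193 to 0.314 after 48 hours.

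Among the clones kept by the rule, the median size of the fall was similar at the 3 temperatures. A clone with a small or absent fall at any 1 temperature could not be a member, so this likeness is partly set by the choice. On the log2 scale its median over the 56 clones was -1.48 in embryos kept at 27.5°C, -1.45 in those at 29.0°C and -1.47 in those at 31.5°C, or 2.78-, 2.73- and 2.77-fold. In 41 clones the fall passed 2-fold at every temperature, and in 2 clones, AOSF1178 and CAON395, it passed 4-fold at every temperature. All 56 clones had a mean above 0 at 12 hours in every temperature, and 55, 56 and 55 had a mean below 0 at 48 hours at 27.5, 29.0 and 31.5°C. The exceptions at 48 hours were the serpin clone AOSF1053 at 27.5°C (0.08) and CAON391 at 31.5°C (0.36). In 53 of the 56 clones the lowest of the 12-hour arrays lay above the highest of the 48-hour arrays, and the clones where they overlapped were AOSF684, AOKF388 and CAON391. These values selected the clones and are given as a description. Single temperatures gave a fall of 0.8 or more in 137 clones (12.5%) at 27.5°C, 155 (14.1%) at 29.0°C and 104 (9.46%) at 31.5°C.

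**Figure D1:**
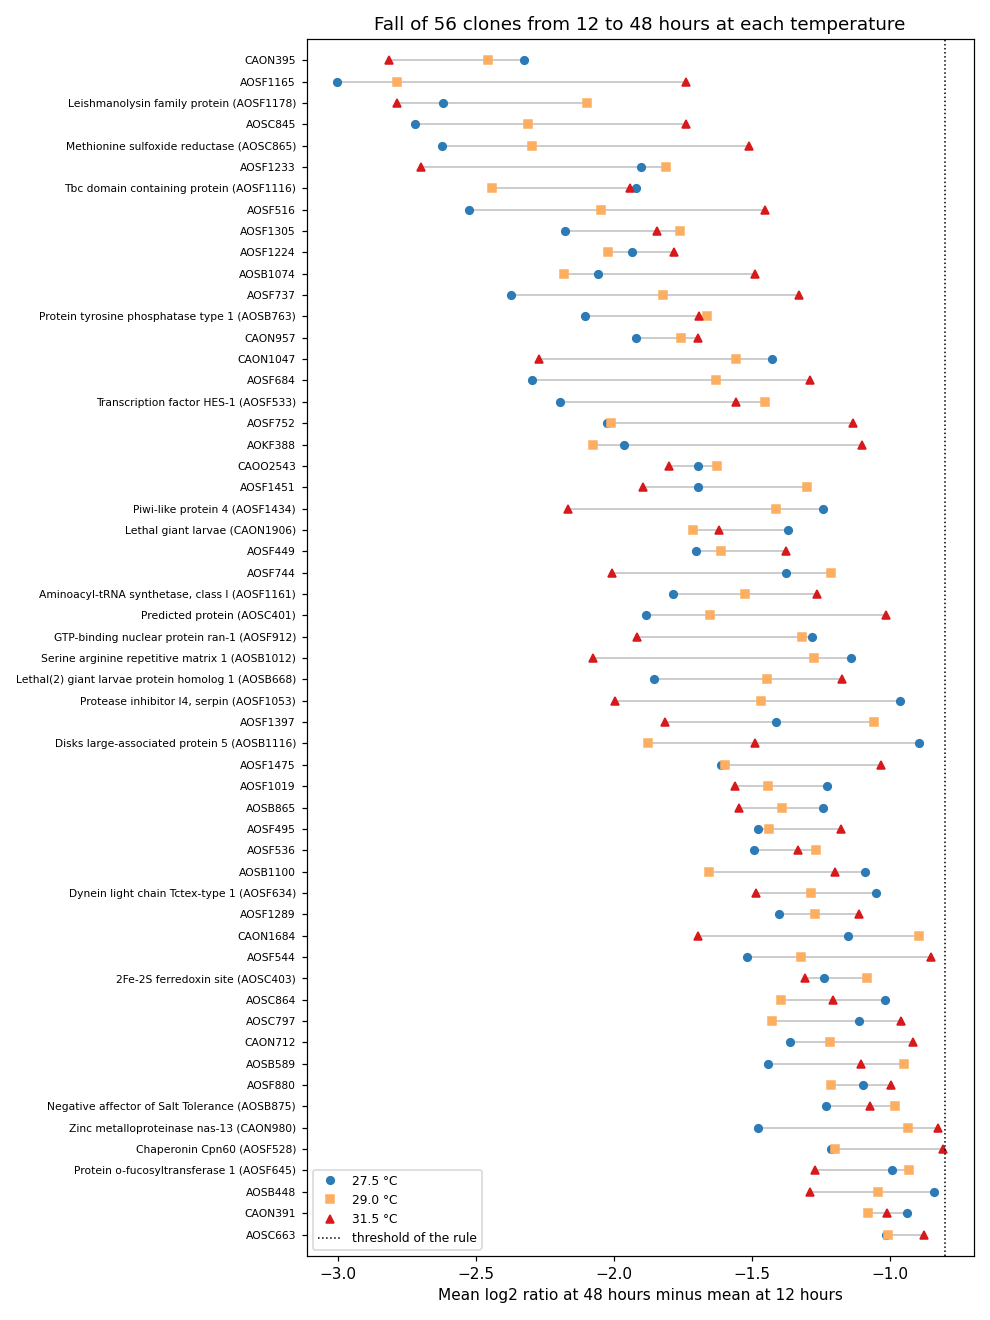
The x axis gives the mean log2 ratio at 48 hours minus that at 12 hours and the y axis lists the 56 clones ordered by their mean fall; circles, squares and triangles stand for 27.5, 29.0 and 31.5°C, each a difference of means of technical arrays. All points lie left of the dotted threshold of -0.8 that chose them, and the order of the temperatures differs from clone to clone.

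Names were available for part of the clones only. The article's lists of clones that differed between temperatures hold 32 of the 56 (57.1%, against 45.1% of all 1099); 19 of these carry an informative name, 13 do not, and the other 24 are not on the lists. The lists were made from these same arrays, so the names are no random sample of the falling clones.

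Proteases and their inhibitors made up one group. The Leishmanolysin family protein (AOSF1178), a zinc metalloprotease of a family first known from the surface of Leishmania parasites, had the largest mean fall of any named clone. Its log2 ratios at 12 hours were 1.14, 1.42 and 1.49 at 27.5°C, 0.56, 0.84 and 0.77 at 29.0°C, and 1.29, 1.38 and 1.46 at 31.5°C. At 48 hours they were -1.39, -1.31 and -1.10 at 27.5°C, -1.38, -1.24 and -1.50 at 29.0°C, and -1.41, -1.37 and -1.44 at 31.5°C. The 29.0°C arrays were the lowest at 12 hours, below every array of the other temperatures, while the temperatures overlapped at 48 hours, and the fall was 6.14-, 4.28- and 6.90-fold from the coolest to the warmest embryos. Zinc metalloproteinase nas-13 (CAON980), named after a nematode enzyme of the astacin family, fell 2.78-, 1.91- and 1.77-fold. The serpin clone (Protease inhibitor I4, AOSF1053), from the serine protease inhibitors, fell 1.95-, 2.76- and 3.99-fold. These 3 clones are all members among the 16 clones that the lists assign to proteolysis.

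Among the falling clones with a category on the lists, those for cell polarity, the cell cycle and development were the most frequent kind. Of the 17 clones assigned to cell proliferation, growth and development, 5 were among the falling clones (29.4%, against 5.10% of all tested clones). Only clones on the lists can have a category, and 32 of the 496 tested clones on the lists were falling clones. Both clones named after Lethal giant larvae, in Drosophila a regulator of epithelial polarity and of asymmetric cell division, were among them. CAON1906 changed by -1.37, -1.71 and -1.62 on the log2 scale at 27.5, 29.0 and 31.5°C, and AOSB668, named Lethal(2) giant larvae protein homolog 1, by -1.85, -1.45 and -1.17. The other 3 were the GTP-binding nuclear protein ran-1 (AOSF912), a GTPase that directs transport through the nuclear pore and spindle assembly, Piwi-like protein 4 (AOSF1434), of the family that binds small RNAs and silences transposons in germ cells, and Disks large-associated protein 5 (AOSB1116), which in human cells stabilizes the mitotic spindle. Whether both Lethal giant larvae clones derive from 1 transcript could not be checked, since no clone sequences were used here.

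Signaling and transcription were represented by single clones. Transcription factor HES-1 (AOSF533), in vertebrates a repressor that acts downstream of Notch, fell 4.58-, 2.73- and 2.94-fold. Protein o-fucosyltransferase 1 (AOSF645), the enzyme that adds fucose to Notch in other animals, fell 1.99-, 1.90- and 2.41-fold. Protein tyrosine phosphatase type 1 (AOSB763), which removes phosphate from tyrosine residues, fell 4.30-, 3.17- and 3.23-fold, and a Tbc domain containing protein (AOSF1116), a type of protein that switches off Rab GTPases in vesicle traffic, fell 3.79-, 5.43- and 3.84-fold. Serine arginine repetitive matrix 1 (AOSB1012), a co-activator of mRNA splicing, and Dynein light chain Tctex-type 1 (AOSF634), a subunit of the microtubule motor dynein, fell at least 2.21- and 2.07-fold.

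Enzymes and chaperones completed the named clones. Methionine sulfoxide reductase (AOSC865), which repairs oxidized methionine in proteins, fell 6.16-, 4.91- and 2.85-fold from the coolest to the warmest embryos. Aminoacyl-tRNA synthetase, class I (AOSF1161), which loads transfer RNAs, fell 3.45-, 2.88- and 2.40-fold, and a clone with a 2Fe-2S ferredoxin site (AOSC403), a motif of iron-sulfur electron carriers, fell 2.36-, 2.12- and 2.47-fold. Chaperonin Cpn60 (AOSF528), the mitochondrial folding chamber, fell 2.32-, 2.29- and 1.75-fold, and Negative affector of Salt Tolerance (AOSB875), a name taken from yeast, fell 2.35-, 1.97- and 2.10-fold. The clone for HSP90 (AOSF1451), a cytosolic chaperone named only in the article's text and picked out here after its values were seen, fell 3.24-, 2.46- and 3.71-fold. Its arrays of 27.5°C at 12 hours ranged from 0.24 to 1.43.

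Read against the lists' categories, 3 of 14 clones for response to stress (HES-1, Cpn60 and Negative affector of Salt Tolerance), 1 of 6 for RNA modification, 1 of 6 for apoptosis (the methionine sulfoxide reductase clone), 1 of 8 for signaling, 1 of 12 for oxidative stress, 1 of 15 for cytoskeleton and 1 of 50 for translation fell at every temperature. With 5.10% of all tested clones, and 32 of the 496 tested clones on the lists, in the set, most of these categories are too small to be read singly. None of 13 clones for electron transport, 13 for metabolism, 11 for transport, 9 for regulation of transcription or 3 for the immune system fell at every temperature, nor did any of 11 for DNA other than the 3 histone clones that were left out, and the largest mean fall in the metabolism category was -0.68. Of the 40 clones with a ribosomal protein name none was a member, and 39 had a higher mean at 48 hours, with a median change of 0.88. By the prefix of the clone identifier, whose meaning is not given in the sources used here, the falling clones were 10 of 75 with AOSB (13.3%), 7 of 135 with AOSC (5.19%), 29 of 501 with AOSF (5.79%), 8 of 296 with CAON (2.70%), 1 of 91 with CAOO (1.10%) and the single AOKF clone.

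The largest falls were mostly in clones without an informative name, as is the whole set, where 19 of the 56 have one. CAON395 changed by -2.33, -2.46 and -2.82 at 27.5, 29.0 and 31.5°C, and AOSF1165 by -3.00, -2.78 and -1.74. AOSC845 changed by -2.72, -2.31 and -1.74, AOSF516 by -2.52, -2.05 and -1.45, AOSF1233 by -1.90, -1.81 and -2.70, and AOSF1305 by -2.18, -1.76 and -1.84. Of these, AOSF1165, AOSC845 and AOSF516 fell least at 31.5°C, and CAON395 and AOSF1233 fell most there. For the last 2 the differences from 27.5°C (-0.491 and -0.796) stayed within the limits described below (0.575 and 1.035).

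At the edge of the threshold, Chaperonin Cpn60 with a smallest fall of -0.81 and nas-13 with -0.82 lay just inside. Chloramphenicol acetyltransferase (CAON1217) with -0.79 at 27.5°C and CAON1353 with -0.79 at 29.0°C lay just outside. With each of the 18 arrays left out in turn, 52 to 59 clones met the rule, and 48 of the 56 met it whichever array was left out. The array with most effect was replicate 1 of 31.5°C at 12 hours, without which 6 clones no longer met the rule. Among them was CAON391, whose arrays there read 3.54, 0.28 and 0.28. Without the first, its change at 31.5°C was 0.08, so its membership rests on 1 array. The others were Cpn60, nas-13, AOSF544, AOSF744 and AOSB448. AOSF544, AOSF744 and AOSB448 were picked out after this was seen. In that condition AOSF744 read 4.01, 0.22 and 0.37, and AOSB448 read 2.73, 0.21 and 0.705. Cpn60 was also lost without replicate 1 or replicate 3 of 31.5°C at 48 hours, and nas-13 without replicate 2.

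As a description, the falls that the rule used were also counted for pairs of temperatures. The clones that passed at the third temperature are the 56 members in every count, so these counts add no support. Of 63 clones that fell by 0.8 or more at both 29.0°C and 31.5°C, 56 (88.9%) also did at 27.5°C, and of 66 chosen at 27.5°C and 31.5°C, 56 (84.8%) did at 29.0°C; all of them were lower at 48 hours at the third temperature. Of 102 clones chosen at 27.5°C and 29.0°C, 56 (54.9%) also passed at 31.5°C, and 12 were higher at 48 than at 12 hours there. Their median change at 31.5°C was -0.94, against -1.21 at the pair that chose them. The median absolute change of all tested clones was also smallest at 31.5°C, 0.36 against 0.49 at 27.5°C and 0.52 at 29.0°C. For these counts the members of the rule were taken without the 3 clones it leaves out.

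The fall of 17 of the 56 clones differed between 31.5°C and 27.5°C. A difference was called where the 95% intervals of both falls did not overlap, from 1 spread per clone over all arrays, and the sum of their half-widths is the limit given beside a value. By this criterion 21.3% of all tested clones differed, against 30.4% of the falling clones. The fall was shallower at 31.5°C in 11 clones (19.6%, against 9.10% of all tested clones whose change was more positive there) and deeper in 6 (10.7%, against 12.2%). The median difference was 0.15. The fall grew in order from 27.5°C over 29.0°C to 31.5°C in 10 clones (17.9%) and shrank in that order in 20 (35.7%), where the change from 12 to 48 hours became more negative in order in 198 and more positive in 222 (20.2%) of the 1099 tested clones. It was largest at 27.5°C in 26 clones, at 29.0°C in 11 and at 31.5°C in 19. With all arrays scaled to the same spread, 6 clones were shallower (10.7%, against 13.8% of all tested clones) and 7 deeper (12.5%, against 11.0%), so the excess of shallower falls over the background is not seen on that scale.

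**Figure D2:**
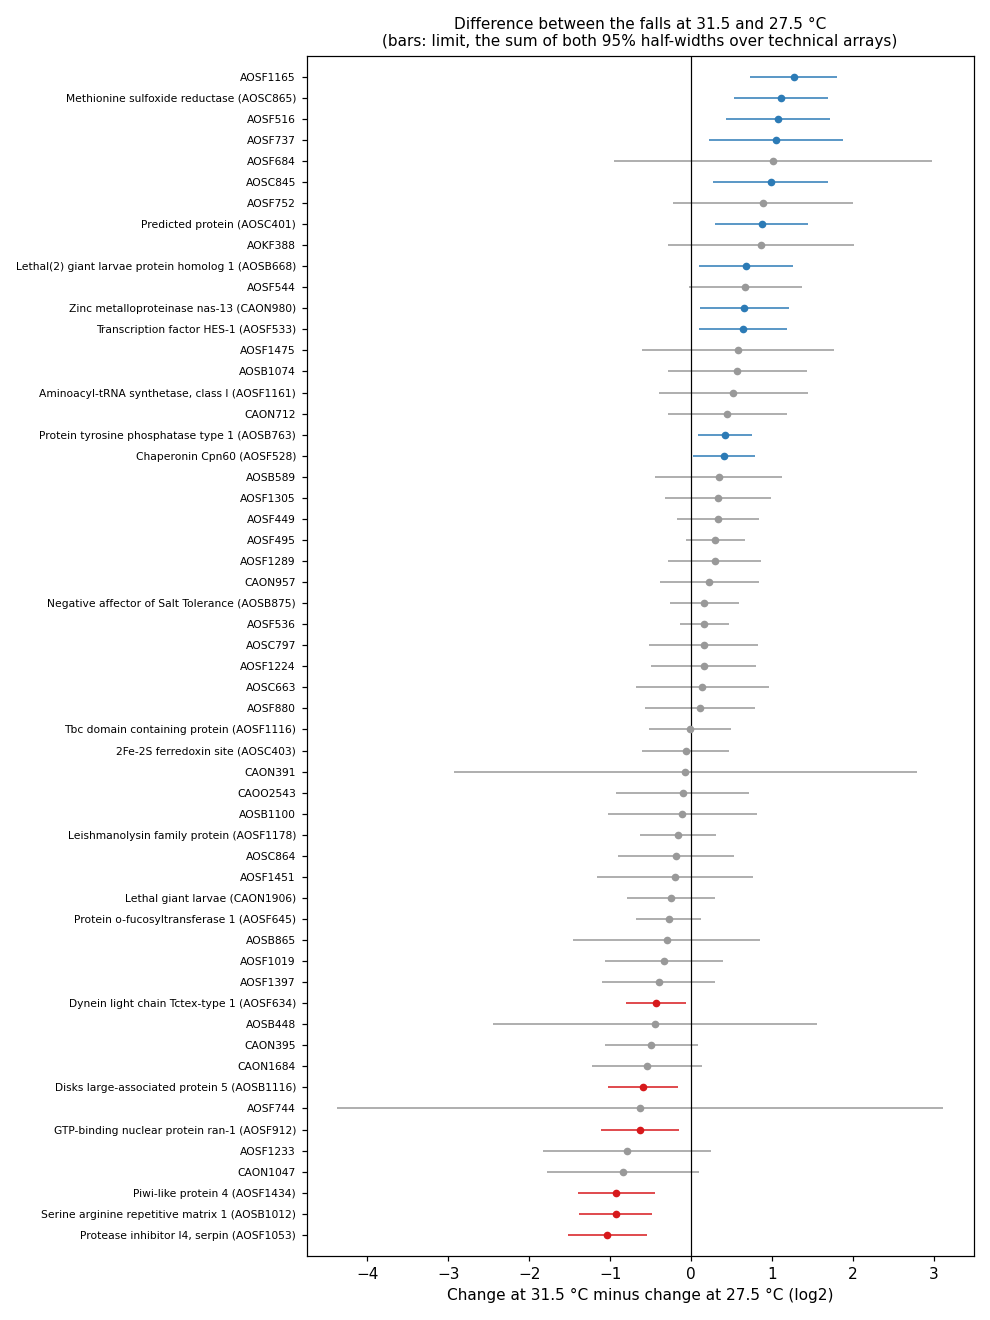
The x axis gives the change from 12 to 48 hours at 31.5°C minus that at 27.5°C in log2 units and the y axis the 56 clones; bars show the limit, the sum of both 95% half-widths over technical arrays. Red points are the 6 clones with a deeper and blue points the 11 with a shallower fall at 31.5°C, and the bars of the 39 grey clones cross 0.

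The shallower falls were led by clones that were less abundant in warm embryos at 12 hours. At that time point replicates 1 and 2 of 27.5°C formed the second header group. AOSF1165, without a name, read 1.58, 1.94 and 1.89 at 27.5°C, 1.53, 1.78 and 1.67 at 29.0°C, and 0.46, 0.76 and 0.73 at 31.5°C after 12 hours. After 48 hours all 9 of its arrays lay between -1.36 and -1.01. The warmest embryos thus stood apart at 12 hours only, and the fall was shallower by 1.26 (limit 0.54) than at 27.5°C. Methionine sulfoxide reductase read 1.36, 1.62 and 1.87 at 27.5°C, 1.09, 1.10 and 1.19 at 29.0°C, and 0.49, 0.63 and 0.65 at 31.5°C after 12 hours. Its arrays of the 3 temperatures did not overlap at 12 hours and went down with warmth, while at 48 hours the means were -1.01 ± 0.14, -1.17 ± 0.24 and -0.92 ± 0.08. Its fall was shallower by 1.11 (limit 0.58). HES-1 read 1.21, 1.47 and 1.49 at 27.5°C, 0.32, 0.52 and 0.35 at 29.0°C, and 0.69, 0.67 and 0.73 at 31.5°C after 12 hours, so both warmer samples lay below the coolest and 29.0°C was lowest. At 48 hours its means were -0.81 ± 0.10, -1.06 ± 0.30 and -0.86 ± 0.01, and the fall was shallower by 0.64 (limit 0.54) at 31.5°C.

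The other 8 clones with a shallower fall at 31.5°C had differences of 0.41 to 1.07. AOSF516 and AOSF737 stood at 1.07 and 1.05, AOSC845 at 0.98 and AOSC401 at 0.87, none of which has an informative name. Lethal(2) giant larvae protein homolog 1 stood at 0.68, nas-13 at 0.65, and the tyrosine phosphatase and Cpn60 at 0.41 each. The call of Lethal(2) giant larvae protein homolog 1 was lost without replicate 2 of 27.5°C at 12 hours (0.60), and that of Cpn60 without any 1 of 7 arrays. AOSF737 and AOSC401 were picked out after their values were seen.

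**Figure D3:**
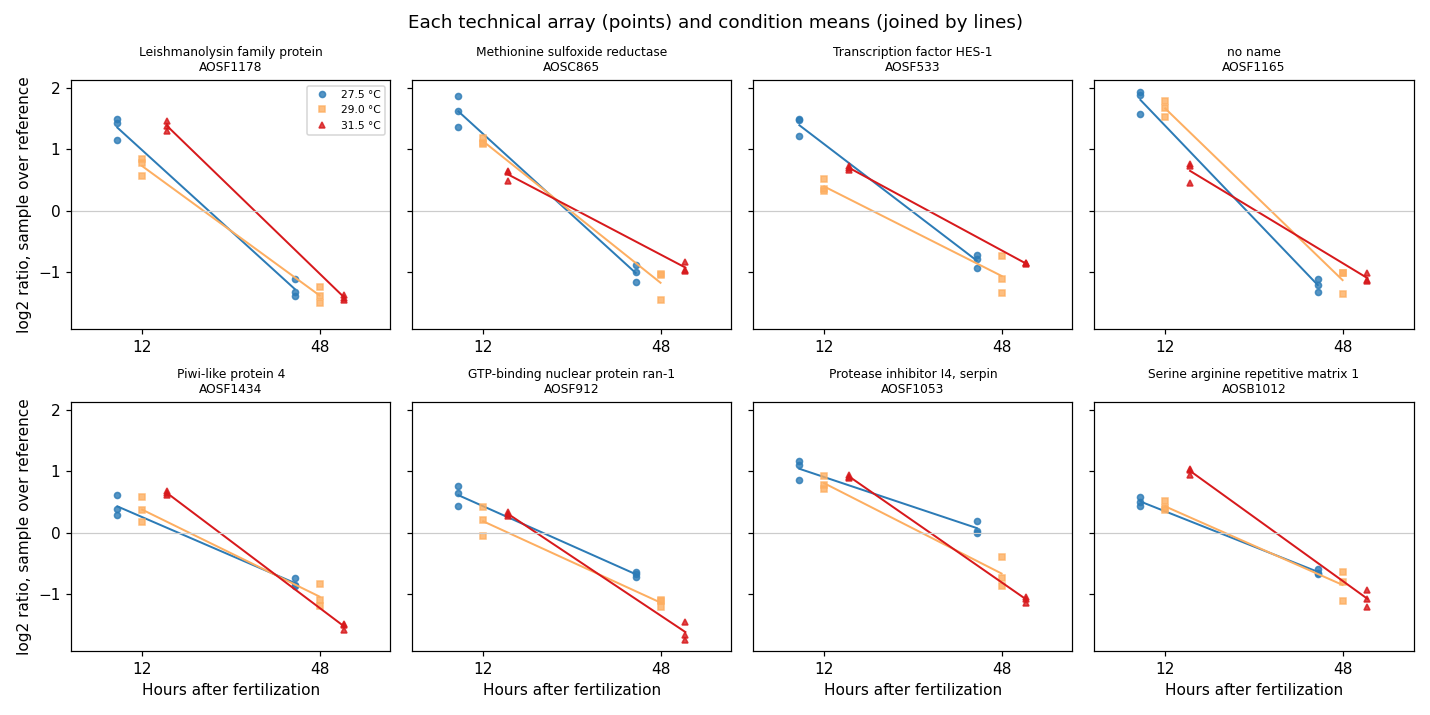
Each panel shows 1 clone, with hours after fertilization on the x axis and the log2 ratio of sample over reference on the y axis; points are technical arrays and lines join the means of 27.5°C (circles), 29.0°C (squares) and 31.5°C (triangles), offset sideways for clarity. In methionine sulfoxide reductase, HES-1 and AOSF1165 the 31.5°C arrays lie below the 27.5°C arrays at 12 hours, and in Piwi-like protein 4, ran-1 and the serpin they lie below them at 48 hours.

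The deeper falls ended at lower levels in warm embryos. The serpin clone AOSF1053 read 1.10, 1.17 and 0.85 at 27.5°C, 0.72, 0.93 and 0.77 at 29.0°C, and 0.89, 0.91 and 0.94 at 31.5°C after 12 hours, with overlapping arrays. At 48 hours it read 0.03, 0.003 and 0.20 at 27.5°C, -0.39, -0.86 and -0.74 at 29.0°C, and -1.14, -1.08 and -1.04 at 31.5°C. The 3 temperatures did not overlap at 48 hours and went down with warmth, and the fall was deeper by 1.04 (difference -1.04, limit 0.49) at 31.5°C than at 27.5°C. The ran-1 clone showed the same order at 48 hours, with -0.63, -0.72 and -0.67 at 27.5°C, -1.20, -1.10 and -1.10 at 29.0°C, and -1.65, -1.73 and -1.45 at 31.5°C. Its means at 12 hours were 0.61 ± 0.17, 0.19 ± 0.24 and 0.31 ± 0.03, and its fall differed by -0.64 (limit 0.48). Piwi-like protein 4 read -0.86, -0.85 and -0.74 at 27.5°C, -0.83, -1.09 and -1.19 at 29.0°C, and -1.50, -1.58 and -1.49 at 31.5°C after 48 hours. The warmest arrays were the lowest, those of the cooler temperatures overlapped, and the fall differed by -0.92 (limit 0.47), with means of 0.43 ± 0.16, 0.38 ± 0.20 and 0.65 ± 0.04 at 12 hours.

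Serine arginine repetitive matrix 1 differed at both ends. It read 0.44, 0.59 and 0.50 at 27.5°C, 0.41, 0.51 and 0.36 at 29.0°C, and 1.02, 1.04 and 0.95 at 31.5°C after 12 hours, when the warmest arrays were all above the others. Its means at 48 hours were -0.63 ± 0.04, -0.85 ± 0.24 and -1.07 ± 0.14, and the fall differed by -0.93 (limit 0.45). Disks large-associated protein 5 differed by -0.60 (limit 0.43) and the dynein light chain by -0.44 (limit 0.37). Of these 6 clones, 3 belong to the 5 falling clones for cell proliferation, growth and development, while of the other 2, CAON1906 differed by -0.25 (limit 0.55) and AOSB668 fell less deeply at 31.5°C.

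Taken by time point, 16 of the 56 clones were lower and 2 higher at 31.5°C than at 27.5°C after 12 hours. The shares were 28.6% and 3.57%, against 9.28% and 7.46% of all tested clones, and the median difference was -0.30. With arrays scaled to the same spread, 6 were lower (10.7%, against 7.83% of all tested clones) and 2 higher (3.57%, against 4.64%), and the median difference was -0.10. After 48 hours 12 clones were lower (21.4%, against 14.6%) and none was higher (against 8.64%), with a median of -0.10. On the common scale 8 were lower after 48 hours (14.3%, against 17.0%) and none higher (against 16.7%). On the arrays at 12 hours, the median absolute deviation of the ratios was 0.261 and 0.250 on replicates 2 and 3 of 31.5°C, below every array of 27.5°C (0.357 to 0.407), and 0.386 on replicate 1.

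The difference in fall lay at different ends in the deeper and the shallower clones. All 11 clones with a shallower fall were called lower at 31.5°C after 12 hours, with a median difference of -0.69, and none was called after 48 hours, where the median was 0.08. Of the 6 with a deeper fall, 5 were called lower after 48 hours (median -0.64) and 2, Serine arginine repetitive matrix 1 and Disks large-associated protein 5, were called higher after 12 hours (median of the 6, 0.05). Since a difference in fall is made of these same levels, this is a breakdown of the values and adds no independent evidence.

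**Figure D4:**
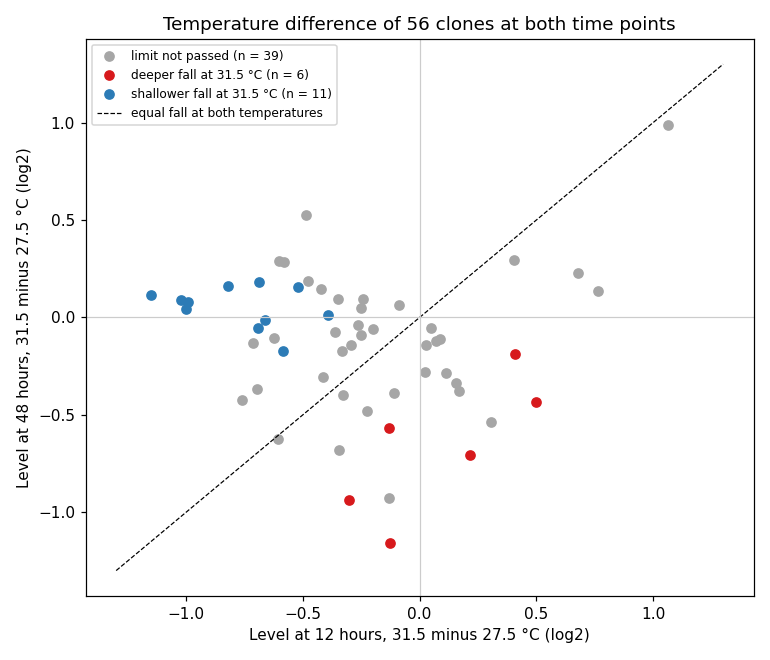
The x axis gives the mean log2 ratio at 31.5°C minus that at 27.5°C after 12 hours and the y axis the same difference after 48 hours, with 1 point per clone; the dashed line marks equal falls. The 11 clones with a shallower fall (blue) lie left of 0 near the horizontal line, the 6 with a deeper fall (red) lie at or under -0.19 on the y axis, and the point at the upper right is CAON391, which rests on 1 array.

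At 29.0°C fewer clones differed from 27.5°C. The fall was deeper in 3 clones (Disks large-associated protein 5, -0.98; the Tbc domain protein, -0.52; the serpin, -0.50) and shallower in 3 (HES-1, 0.74; Leishmanolysin, 0.52; the tyrosine phosphatase, 0.44), or 10.7% against 8.10% of all tested clones (3.46% deeper and 4.64% shallower). The calls of the Tbc domain protein and of the serpin were each lost without any 1 of 14 arrays, and that of Leishmanolysin without any 1 of 6. With arrays scaled to the same spread, 2 of these 6 calls were left, Disks large-associated protein 5 (-0.72) and the tyrosine phosphatase (0.60). After 12 hours 9 clones were lower at 29.0°C and 2 higher (the background being 11.1% and 6.82% of all tested clones), and after 48 hours 4 were lower and 1 higher (5.19% and 2.64%), or 4 and 2 with arrays scaled to the same spread (7.28% and 6.10%). Disks large-associated protein 5 read 1.37, 1.42 and 1.18 at 29.0°C against 0.63, 0.44 and 0.77 at 27.5°C after 12 hours, so that its arrays did not overlap, and the 31.5°C arrays, 0.83, 1.23 and 0.99, lay above those of 27.5°C and overlapped those of 29.0°C.

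Between 31.5°C and 29.0°C, 7 clones fell more deeply and 4 less deeply at 31.5°C, 19.6% against 21.3% of all tested clones (12.6% deeper and 8.64% shallower). Leishmanolysin was among the deeper ones with -0.69, and its 12-hour level was lowest at 29.0°C. On the common scale 3 clones fell more deeply, Serine arginine repetitive matrix 1, ran-1 and AOSF1397, and 1 less deeply, AOSF1165 (11.5% and 9.19% of all tested clones). Without scaling, AOSF1165 (1.05) and methionine sulfoxide reductase (0.78) were the most positive of the clones called. After 12 hours 8 clones were lower and 2 higher at 31.5°C than at 29.0°C (7.01% and 10.0% of all tested clones), or 2 and 3 on the common scale (3.91% and 7.10%), and after 48 hours 8 were lower and none higher (11.0% and 6.92%). The Tbc domain protein, with 1.81, 1.73 and 1.63 at 29.0°C and 0.65, 0.63 and 0.47 at 31.5°C after 12 hours, was lower at both time points in the warmest embryos without a change in fall against 27.5°C (difference -0.02, limit 0.51).

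With RNA samples as units, the level over both time points was compared between temperatures in limma with Benjamini-Hochberg adjustment over the 1099 clones. The fit of 6 RNA samples has no term for a fall that differs between temperatures. Such a difference counts as residual spread there, so a clone that does not pass may still differ. Against 27.5°C, none of the 56 clones passed an adjusted p of 0.05 at 29.0°C or 31.5°C (0.00% of all tested clones in either), and the smallest adjusted p in the set was 0.975 and 0.147. Before adjustment, 1 clone at 29.0°C (1.79%, against 3.00% of all tested clones) and 7 at 31.5°C (12.5%, against 6.10%) were under 0.05. Of the 7, 6 were lower at 31.5°C: AOSF1305, the Tbc domain protein, ran-1, AOSF449, AOSF1019 and the serpin. The clone that was higher and had the smallest p was CAON391, which rests on 1 array as described above. By direction alone, 43 of the 56 clones were lower at 29.0°C (76.8%, against 51.0% of all tested clones) and 49 at 31.5°C (87.5%, against 51.5%), with median differences of -0.14 and -0.19. These counts are without scaling of the arrays, and the clones share the same RNA samples and are not independent. All 56 lay above 0 at 12 hours, where their median difference between 31.5 and 27.5°C went from -0.30 to -0.10 with scaling. Whether array spread accounts for the counts was not tested.

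Limma, run on the technical arrays as if they were replicates, called a difference in fall at an adjusted p of 0.05 for 2 of the 56 clones between 29.0 and 27.5°C (3.00% of all tested clones), for 17 between 31.5 and 27.5°C (24.7%) and for 12 between 31.5 and 29.0°C (23.9%).

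Some clones had nearly the same profile over the 6 conditions. The means of the dynein light chain and the 2Fe-2S ferredoxin clone differed by at most 0.11 in any condition, and those of the ferredoxin clone and Negative affector of Salt Tolerance by at most 0.16. These are differences of means over 6 conditions and were ranked after the values were seen. The median technical spread per clone was 0.18, close to the 0.20 of all tested clones.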

How the data were processed

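The authors imaged each array in TIGR Spotfinder 2.2.4 and deposited background-subtracted spot intensity for Cy3 and Cy5. Their series table, as deposited, gives each clone 1 log2 ratio (Cy5 to Cy3) on an array after print-tip LOWESS in TIGR MIDAS 2.19. The log2 ratios were used without further normalization. Intensities, which carry no clone identifiers, served to check their scale and sign. Falls, differences and 95% intervals came from a linear model of the 6 conditions per clone (12 residual degrees of freedom with all arrays), tested on simulated data. Technical arrays of 1 RNA isolation are no biological replicates, so interval calls carry no p-value. Levels over RNA samples were compared in limma 3.58.1 (R 4.3.3) by a fit of temperature plus time point, with Benjamini-Hochberg adjustment. Alternatives were median centring, scaling to the same median absolute deviation, clones on all 18 arrays, each array left out and a replicate block. Others were the spread of the compared conditions alone, limma over technical arrays, temperature as a number, and thresholds of -0.6 and -1.0. Added after the data were seen was a run with the first header group only. Members and lists were chosen with earlier results of these data known. Clones were named by rule: all members with an informative name, the 6 largest falls among the others, the 3 most positive and negative called differences in fall, and the clones next to the threshold; others are marked in the text. The source names give other temperatures than the titles; the titles were followed. The model ran in Python 3.11.15 (numpy 2.4.6, scipy 1.17.1, pandas 2.3.3), and plots were drawn in matplotlib 3.10.9.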

Additional observations from a re-analysis of the deposited data

Results flagged for a closer look

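In 16 of the clones named, the change from 12 to 48 hours differed between temperatures both by the 95% intervals and by limma over the technical arrays with adjusted p under 0.05, in 25 comparisons. Both tests use the same technical arrays of 1 RNA isolation per condition, so their agreement is no independent evidence. For 29.0 against 27.5, 31.5 against 27.5 and 31.5 against 29.0°C, the intervals called 8.10%, 21.3% and 21.3% of all tested clones. Limma called 3.00%, 24.7% and 23.9%, and the share passing both was not computed. AOSF737 and AOSC401 were picked out after their values were seen, so the count is no share of a set fixed beforehand. At 31.5°C against 27.5°C the differences were -1.04 for the serpin, -0.93 for Serine arginine repetitive matrix 1, -0.92 for Piwi-like protein 4, -0.64 for ran-1, -0.60 for Disks large-associated protein 5 and -0.44 for the dynein light chain. They were 0.64 for HES-1, 0.65 for nas-13, 0.68 for Lethal(2) giant larvae protein homolog 1, 0.87 for AOSC401, 0.98 for AOSC845, 1.05 for AOSF737, 1.07 for AOSF516, 1.11 for methionine sulfoxide reductase and 1.26 for AOSF1165. At 29.0°C against 27.5°C they were -0.98 for Disks large-associated protein 5 and 0.74 for HES-1. At 31.5°C against 29.0°C they were -0.80 for Serine arginine repetitive matrix 1, -0.76 for Piwi-like protein 4, -0.69 for Leishmanolysin, -0.60 for ran-1, -0.53 for the serpin, 0.64 for AOSC401, 0.78 for methionine sulfoxide reductase and 1.05 for AOSF1165.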

How the results depend on the processing

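Scaling the arrays to the same median absolute deviation lowered the number of clones whose fall differed to 2 between 29.0 and 27.5°C (from 6) and to 4 between 31.5 and 29.0°C (from 11). Under it the calls at 12 hours went to 6 (29.0 against 27.5°C), 8 (31.5 against 27.5°C, median -0.10) and 5 (31.5 against 29.0°C), and at 48 hours to 5 (31.5 against 29.0°C); the fall at 31.5 against 27.5°C was no longer called for HES-1, nas-13, AOSC401, the tyrosine phosphatase and Cpn60. Of the differences listed above between other temperatures, it also lost HES-1 (29.0 against 27.5°C) and Piwi-like protein 4, Leishmanolysin, the serpin, methionine sulfoxide reductase and AOSC401 (31.5 against 29.0°C). At 31.5 against 29.0°C the serpin and AOSC401 were each lost without any 1 of 7 arrays. The first header group only, added after the data were seen, leaves 1 array of 27.5°C at 12 hours. For the fall at 31.5 against 27.5°C it lost the calls of Disks large-associated protein 5 (-0.44), nas-13 (0.56) and Lethal(2) giant larvae protein homolog 1 (0.44). Limma over the technical arrays gave 2 falls between 29.0 and 27.5°C. The spread of the compared conditions alone gave 5 calls at 12 hours (29.0 against 27.5°C) and 20 at 48 hours (31.5 against 27.5°C). With 1 array left out, differing falls numbered 3 to 7 (29.0 against 27.5°C), 16 to 24 (31.5 against 27.5°C) and 7 to 13 (31.5 against 29.0°C); the 3 came without replicate 3 of 27.5°C at 12 hours, replicate 1 of 27.5°C or replicate 2 of 29.0°C at 48 hours, and the 7 without replicate 2 of 31.5°C at 48 hours. Calls at 12 hours numbered 6 to 14, 16 to 21 and 9 to 15 in the same order of temperatures, the 6 without replicate 1 of 29.0°C, and at 48 hours 4 to 8, 10 to 14 and 6 to 10, the 8 without replicate 1 of 29.0°C. Over RNA samples 0 to 1 clones passed, the 1 being CAON391 without replicate 3 of 31.5°C at 12 hours.

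The rule gave 57 clones with centred arrays, 51 with scaled arrays, 55 on all 18 arrays, 52 in the first header group, 78 at -0.6 and 41 at -1.0. Over 45 pairs of arrays with the same replicate number, deviations correlated between -0.18 and 0.268, 9 of them over 0.1, so the numbers do not pair the arrays. With a replicate block, 5, 18 and 12 falls differed (29.0 against 27.5, 31.5 against 27.5 and 31.5 against 29.0°C), with 5, 17 and 8 of them shared with the calls without it; the serpin lost its calls at 29.0 against 27.5°C and 31.5 against 29.0°C, and AOSC401 and Cpn60 theirs at 31.5 against 29.0°C.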
